A study of Caenorhabditis elegans with 2 samples.

Results

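The maternal CCCH zinc-finger fate genes are mex-1, mex-5, mex-6, pos-1, pie-1, oma-1 and oma-2, which code for RNA-binding proteins that the mother loads into the Caenorhabditis elegans oocyte. These 7 genes of 19973 protein-coding genes on the nuclear chromosomes were chosen by name for their part in early embryonic polarity and germline fate. For each, all summits of SPTF-1 ChIP-seq regions were collected from the gene and the 2000 bp upstream of it, called the gene window below. SPTF-1 belongs to the Sp family of transcription factors, which bind DNA through zinc fingers. It was profiled in whole mixed-stage embryos of both sexes, 2.5 hours after synchronization by bleaching, in 1 group of 2 biological replicates. Both replicates were strain OP707, of genotype unc-119(tm4063) III; wgIs707, in which the transgene codes for SPTF-1 with a GFP and FLAG tag at its C-terminus. The labels name no change at the sptf-1 locus itself, and no untagged or treated group was analysed here. The labels disagree on the antibody, with anti-GFP in the description and sptf-1 in the antibody field, and whole embryos do not separate blastomeres or germline from soma.

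The 7 proteins carry fingers with the metal-binding order Cys, Cys, Cys, His and bind maternal mRNAs, mostly in their 3' untranslated regions. In the zygote the PAR kinases place MEX-5 and MEX-6 in the anterior, while MEX-1, POS-1 and PIE-1 go to the posterior germline blastomeres, where PIE-1 holds back transcription by RNA polymerase II. OMA-1 and OMA-2 act redundantly in oocyte maturation and in the first cell cycle keep the general transcription factor TAF-4 out of nuclei. Kinase MBK-2 marks the OMA proteins for destruction. The mRNAs of these genes are made in the germline of the mother, whereas the chromatin profiled here came from embryos. In the annotated coding sequences, a pattern of 8 to 10, 5 and 3 residues between the 4 metal-binding residues matched 2 times in 6 of the proteins and 1 time in PIE-1. Fingers with other spacings are missed, so the matches are not a count of the fingers in a protein.

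The 4 sequences below show the bases under the regions nearest upstream of 3 members, with a member without any region for contrast. All are the plus strand, on which all 7 genes lie, and come from the RefSeq genome of build WBcel235, the same assembly as ce11. Capitals mark the 11 bases centred on the summit. The mex-1 stretch is II:11967610-11967810, around the member summit of highest signal. The mex-5 stretch, IV:13353352-13353552, surrounds a summit between mex-5 and the divergent gene rec-8. The oma-2 stretch, V:8029289-8029438, is cut at the last base before the gene, and the oma-1 stretch, IV:8888775-8888975, is the 201 bp before a gene without a listed region, so it has no capitals.
mex-1: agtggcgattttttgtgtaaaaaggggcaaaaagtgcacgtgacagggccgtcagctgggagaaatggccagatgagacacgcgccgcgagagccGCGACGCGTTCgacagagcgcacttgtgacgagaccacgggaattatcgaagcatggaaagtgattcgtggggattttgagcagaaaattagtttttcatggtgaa
mex-5: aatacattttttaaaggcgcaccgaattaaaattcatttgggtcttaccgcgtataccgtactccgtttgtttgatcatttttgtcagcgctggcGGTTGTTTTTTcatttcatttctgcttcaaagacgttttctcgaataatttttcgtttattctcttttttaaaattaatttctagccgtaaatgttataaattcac
oma-2: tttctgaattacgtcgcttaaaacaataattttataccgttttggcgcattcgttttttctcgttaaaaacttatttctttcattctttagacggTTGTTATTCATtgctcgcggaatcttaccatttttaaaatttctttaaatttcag
oma-1: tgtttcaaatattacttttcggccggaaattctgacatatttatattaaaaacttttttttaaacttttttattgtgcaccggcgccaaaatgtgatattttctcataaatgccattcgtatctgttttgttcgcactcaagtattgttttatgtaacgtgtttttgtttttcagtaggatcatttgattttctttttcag
The mex-1 stretch has 51.2% G and C, whereas the mex-5, oma-2 and oma-1 stretches have 32.3%, 29.3% and 29.4%. The cut oma-2 stretch is only 150 bp long, and the full 201 bp around its summit have 34.8%. Windows of 201 bp had a median of 46.8% at all 2419 nuclear thresholded summits, 40.8% at all pooled-list summits and 32.8% directly upstream of all protein-coding genes.

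On ce11, 4 lists of regions were read. The authors' thresholded list holds 2430 regions and equals the 2430 strongest of 30000 regions listed for both replicates together, the pooled list. By its label the pooled list holds peaks and background, so a region in it is not by itself a peak. Each replicate also has a list of 30000 regions. The signal value is the authors' own and is not on 1 scale across lists, so ranks by signal within a list are given, with rank 1 the strongest. Signal was also set, as a log2 ratio, against the median of the 2430 strongest regions of its own list, which was 300 in the pooled list, 173 in replicate 1 and 140 in replicate 2. Read depth is unknown, and the pooled and thresholded lists are made from the same reads as the replicate lists. In worms many mRNAs are trans-spliced, so an annotated 5' end often marks the splice site and not the start of transcription.

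Of the 7 genes, only mex-1 had a thresholded summit in its gene window, beside 12.3% of all protein-coding genes (2466 of 19973). The pooled list had summits at 4 of 7 members, mex-1, mex-5, pie-1 and oma-2, beside 52.7% of all genes. Replicate 1 listed summits at the same 4 members, beside 54.4%. Replicate 2 listed them at 3, without mex-5, beside 56% of all genes. At the strongest pooled summit of mex-1 the authors' −log10 q value was 2.02. For pie-1, oma-2 and mex-5 it was 0.785, 0.542 and 0.427, so their pooled regions may be background. No list had a summit at mex-6, pos-1 or oma-1, beside 37.1% of all genes with none. With so few members, none of these shares stands clear of the share over all genes. Long windows hold more summits, and the members' windows, with a median of 4186 bp against 4027 bp over all genes, were of ordinary length. Among the 12028 genes with windows of at most 4500 bp, a group that includes 6 of the members and whose limit was chosen after the values were seen, 42.3% had a pooled summit and 46.6% had no summit in any of the 3 full lists.

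**Figure D1:**
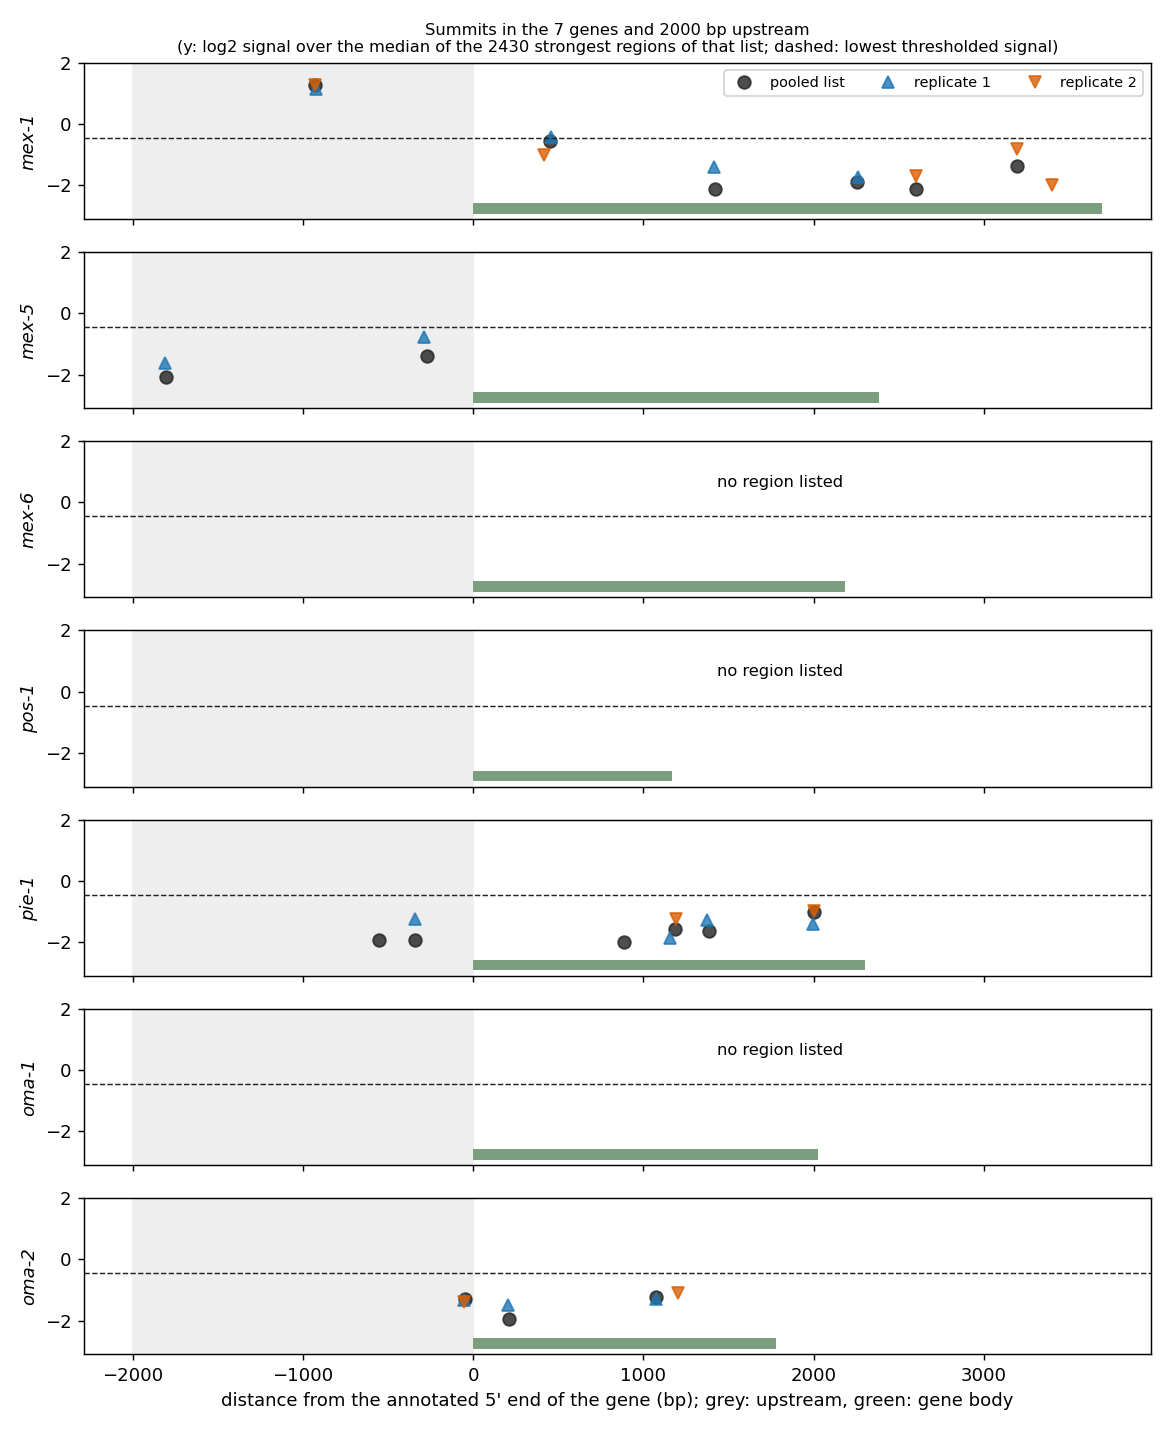
Summits in the gene window of each of the 7 genes, by distance from the annotated 5' end in bp (x) and log2 signal over the median of the 2430 strongest regions of the same list (y), for the pooled list (circles) and replicates 1 and 2 (triangles up and down). Above the dashed line, the lowest thresholded signal in the pooled list, lie the mex-1 summit 927 bp upstream in all 3 lists and, narrowly, the replicate 1 summit 455 bp inside mex-1, while mex-6, pos-1 and oma-1 have no point.

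MEX-1 takes part in keeping germline determinants, P granules among them, in the germline lineage. At its upstream region (summit II:11967710), the signal was 725 in the pooled list, rank 220 of 30000. Replicate 1 gave 384, rank 250, and replicate 2 gave 339, rank 198. The summits of the replicates lay 1 bp and 0 bp from the pooled one. On the log2 scale against each replicate's own median the levels were 1.15 and 1.28, a difference of -0.13, which is within the SD of 0.386 of such differences over the thresholded regions. The region is thus among the strongest in both replicates. At 229 bp it was among the 18.4% of thresholded regions narrower than the usual 424 bp. By signal, among the promoter summits defined below, it stood just below the one shared by haf-6, an ABC transporter gene, and smg-2, a helicase gene of nonsense-mediated decay, at 736. Next below was the summit shared by F44E5.4 and F44E5.5, an Hsp70 gene pair, at 719. Of 1650 genes with a thresholded promoter summit, 158 had a higher one.

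The summit of this strong region is closer to other genes than to mex-1. It lies 927 bp upstream of the annotated 5' end of mex-1 (II:11968637-11972330), in the 1092 bp between mex-1 and the divergent gene W03C9.5 (II:11966885-11967544, minus strand). From the 5' end of W03C9.5 it is 166 bp upstream, and from that of rab-7, a small GTPase gene of late endosomes on the same strand as W03C9.5, it is 779 bp upstream. In a promoter window of 1000 bp upstream to 500 bp downstream of a transcript 5' end, the summit counts for all 3 genes. By this measure 1 of 7 members had a thresholded promoter summit, beside 8.26% of all genes. When each summit counted only for the gene with the nearest 5' end, 0 of 7 did, beside 6.23%. Such sharing was common, as 24.3% of 1753 pairings of a thresholded summit with a promoter window had another gene's 5' end nearer. Over all nuclear thresholded summits the median distance to the nearest 5' end was 673 bp, and 20.7% lay 1 to 200 bp upstream, as this summit does of W03C9.5. The lists cannot assign a summit between 2 divergent genes to either of them.

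**Figure D2:**
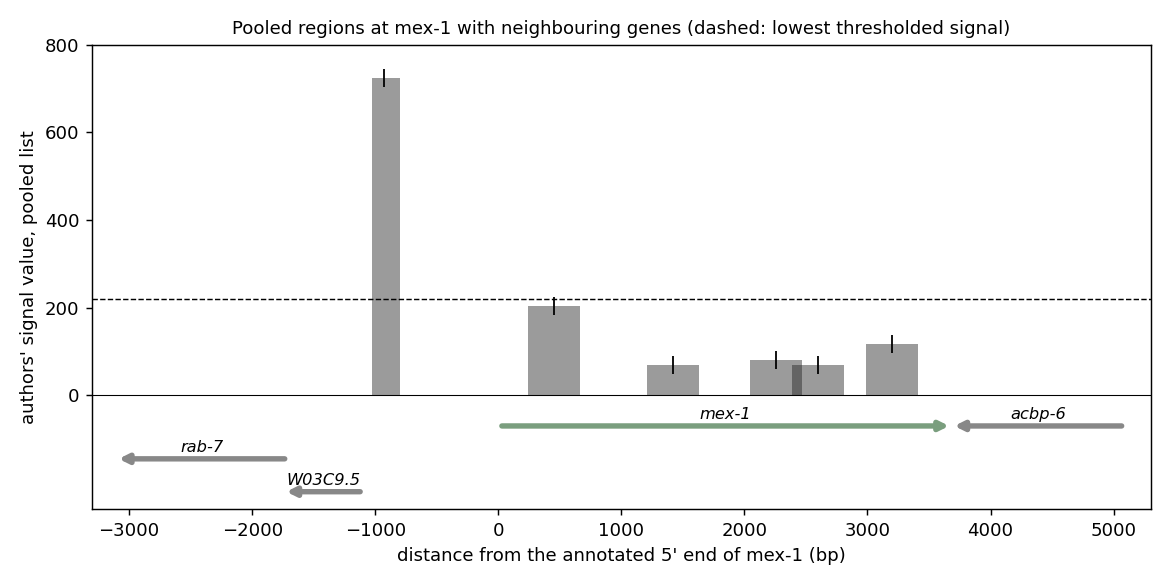
Pooled-list regions at mex-1 by distance from its annotated 5' end in bp (x), drawn as bars as wide as the region and as high as the authors' signal value (y), with a tick at each summit and arrows for genes in their direction of transcription. The bar at -927 bp reaches 725 and lies beside the 5' end of W03C9.5, while the bars inside mex-1 stay below the dashed line at the lowest thresholded signal, 219.

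A second mex-1 region lay just under the threshold. Its summit, 454 bp inside the gene in a coding exon (II:11969091), had a pooled signal of 203, rank 2909, where the lowest thresholded signal was 219. Replicate 1 gave 130, rank 2377, within its 2430 strongest regions, while replicate 2 gave 69.8, rank 6533, with the summit 39 bp away. The log2 difference between replicates was 0.59, slightly above the SD of 0.538 for regions of pooled rank 2431 to 10000. This is the strongest summit for which mex-1 itself had the nearest 5' end. Within the gene 4 weaker pooled regions followed. The strongest of these, in a coding exon 3197 bp from the gene start, had a pooled signal of 116 and was listed only in replicate 2, at rank 4537. The other 3 were intronic, with ranks 23277, 29457 and 29979.

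PIE-1, the repressor of germline transcription, had 6 pooled regions, some of which overlap each other, and none past the threshold. The strongest, with its summit in a coding exon 2003 bp from the gene start (III:12428896), had a signal of 148, rank 6550. In replicate 1 it had 65.6, rank 14187, and in replicate 2 it had 70.3, rank 6422. A shorter annotated transcript of pie-1 begins 183 bp before this summit. Of the other 5, 3 were intronic and 2 lay 342 and 552 bp upstream with ranks 24562 and 24930. The upstream summit at 342 bp was the strongest pie-1 region of replicate 1, at 73.0 and rank 11093, and replicate 2 listed no region there. The neighbours of pie-1, snr-6, which codes for an Sm protein of the spliceosome, and Y49E10.16, both had a thresholded promoter summit. The thresholded summit nearest to the pie-1 start, 2990 bp from it, had a signal of 232, rank 2116. It lies between these divergent neighbours and counts for both.

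OMA-2 had 3 pooled regions. The strongest lay in an intron 1072 bp from the gene start (V:8030511), with a pooled signal of 127, rank 9717. The 5' end of the next gene, vars-1, for a valyl-tRNA synthetase, was slightly nearer, at 900 bp. Its replicate signals were 70.6, rank 12039, and 64.8, rank 7941, and the replicate 2 summit was 130 bp away. Nearly as strong was the summit 50 bp upstream of oma-2 (V:8029389), the member summit closest to its own annotated 5' end. There the pooled signal was 122, rank 10553. The replicates gave 69.1, rank 12658, and 53.6, rank 12647, with summits within 5 bp of the pooled one. Over the genome, both replicates had a summit within 100 bp at 45.3% of pooled regions of rank 10001 to 20000. A match between replicates alone therefore does not set this weak region apart. The third summit, 210 bp inside the gene in a coding exon, had rank 25451.

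OMA-1 acts redundantly with OMA-2, but oma-1 had no region in its gene window in any list. The neighbouring spr-2, a suppressor of presenilin loss, had a region in both replicates, 2439 bp from the oma-1 start and past its 3' end in replicate 1 and 2466 bp in replicate 2. Its signal was 126, rank 2562, in replicate 1 and 112, rank 1954, in replicate 2. The pooled list had no region for 55.6 kb around oma-1, a stretch in which replicate 1 had 4 summits and replicate 2 had 5. For oma-1 the lack of a region therefore rests on the 2 replicate lists, which had none for 24.7 kb and 24.6 kb.

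MEX-5 and MEX-6 act redundantly to set up the anterior cytoplasm. For mex-5, the pooled summit 271 bp upstream (IV:13353452) had a signal of 114, rank 12430. Replicate 1 gave 101, rank 4676, and replicate 2 listed no region there. The summit lies in the 529 bp between mex-5 and the divergent rec-8, a meiotic cohesin gene, 259 bp from rec-8 and so slightly nearer to it. A weaker mex-5 region, 1804 bp upstream and inside rec-8, had pooled rank 28656 and was also absent from replicate 2, whose list had a stretch of 8.37 kb without regions here. The mex-6 window lay in a stretch of 69.8 kb without pooled or replicate 1 regions, and of 72.6 kb in replicate 2. Stretches of over 20 kb without regions numbered 846 in the pooled list. Of the 36-base words in the mex-6 window, 93.6% occur once in the genome, the lowest share among the members, and the part of repeated sequence in the missing regions was not tested.

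POS-1, a translational regulator of maternal mRNAs in the posterior, had no region in its gene window. Its shorter gap, 5.62 kb in the pooled list, ended at a region whose summit lay 1802 bp from the pos-1 start, past its 3' end and inside lmd-3. The pooled signal there was 118, rank 11507. The replicates had it as well, at 65.2, rank 14333, and 56.2, rank 11347. The 3 members without regions thus differed in their surroundings, with weak regions close to pos-1, a replicate-only region close to oma-1 and none within 20 kb of the mex-6 start.

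**Figure D3:**
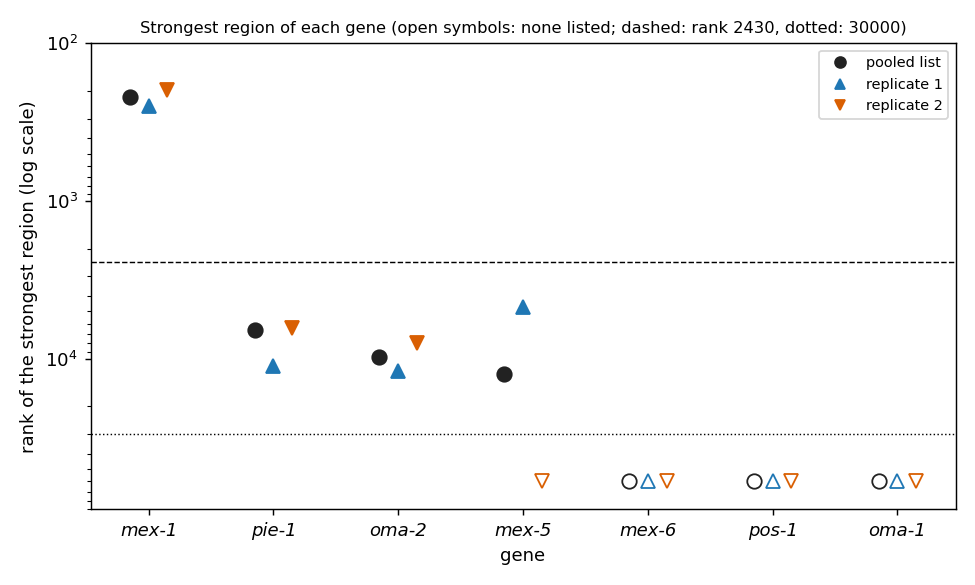
Rank by signal of the strongest region in the gene window of each member (y, log scale, strongest at the top) in the pooled list (circles), replicate 1 (triangles up) and replicate 2 (triangles down). Only mex-1 stands above rank 2430 (dashed), and open symbols below rank 30000 (dotted) mark lists without a region.

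In order of the strongest region by replicate, mex-1 came first, at log2 levels of 1.15 and 1.28. Then came pie-1 at -1.24 and -0.99, oma-2 at -1.29 and -1.11, and mex-5 at -0.77 in replicate 1 and without a region in replicate 2. The pie-1 values belong to different sites, 343 bp upstream in replicate 1 and 2003 bp inside the gene in replicate 2. At the latter site alone, the strongest in the pooled list, the pie-1 levels were -1.40 and -0.99. Either way the ranges of pie-1 and oma-2 overlapped, so these neighbours did not differ beyond their spread. The range of mex-1 overlapped neither, and the place of mex-5 depends on the replicate. The strongest pooled region shared at least 1 base with a region of each replicate for 3 of the 4 members with any, and for 2 both replicates had a summit within 100 bp of the pooled one. The share of regions held by both replicates fell with pooled rank over the whole genome. By an overlap of at least 1 base, both replicates held 99.3% of pooled regions of rank 1 to 2430, 96.3% of rank 2431 to 10000, 73.2% of rank 10001 to 20000 and 36.1% of rank 20001 to 30000. For the members' regions these counts were 1 of 1, 3 of 3, 3 of 5 and 4 of 8, where some neighbouring pooled regions overlap the same replicate region. When both replicates had to have a summit within 100 bp of the pooled one, a setting added after the values were seen, the shares over the genome were 93.8%, 79.4%, 45.3% and 8.45%, and the members' counts were 1 of 1, 2 of 3, 2 of 5 and 0 of 8.

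The 17 pooled summits in member windows, some of them from overlapping regions, were spread over 6 upstream positions, 7 in introns and 4 in coding exons. In the promoter windows, 4 of 7 members had a pooled summit, beside 39.8% of all genes. Sp factors of mammals bind GC boxes (GGGCGG) and GT boxes (GGGTGG, whose reverse complement is the CACCC box CCACCC), and both strands were searched within 100 bp of each summit, along with GGGNGG, which covers both boxes, and GATAAG. None of these words lay within 100 bp of the strong mex-1 summit. A GC box was found at 3 of 17 member summits, all weak ones inside mex-1, beside 7.87% of all pooled-list summits. A GT box lay near 1 summit, the oma-2 one 50 bp upstream, 88 bp from it and beyond the gene start, where the printed stretch ends, beside 6.79% of pooled-list summits. Together these gave GGGNGG at 4 of 17, beside 24.6%, and GATAAG was at 0 of 17, beside 5.93%. Of the thresholded windows, to which only the strong mex-1 summit belongs, 14.5% held a GC box, 10.9% a GT box, 41.1% GGGNGG and 4.96% GATAAG. In the 201 bp upstream of all genes the shares were 6.01%, 4.09%, 16.0% and 12.6%. How SPTF-1 came to be at the region of the strong mex-1 summit was not tested.

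Genes related to the 7 were read from 6 lists, 5 of genes that work with the proteins and 1 of other genes that match the finger pattern, in all 62 genes, of which 20 (32.3%) had a thresholded summit in the gene window, beside the 12.3% over all genes. By promoter window there were 17, beside 8.26%, and by nearest 5' end 11, beside 6.23%. Their median window was 5099 bp, longer than the 4027 bp of all genes. The lists were chosen with results of these data known and the counts are a description.

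Polarity genes and kinases, which place or modify the CCCH proteins, had a thresholded summit in 7 of 11, beside 12.3% of all genes. By nearest 5' end there were 5, beside 6.23%. The median window of this list, 8993 bp, was longer than the 4027 bp of all genes, and no share at like length was taken. PAR-1 is the kinase that phosphorylates MEX-5, and par-1 had 3 intronic summits, with signals of 316, 249 and 242, of which the strongest was nearest to AH10.4, 1472 bp from its 5' end. The gene for MBK-2, the kinase acting on OMA-1, had 4 at signals from 269 to 308, of which 3 were intronic. Genes for the cortical factors had summits as well. The par-2 summit, at 303, lay 640 bp upstream but 14 bp from the 5' end of rab-18. The par-5 summit, at 255, lay 196 bp upstream but 86 bp from the 5' end of M117.3. Those of pkc-3 (242) and lgl-1 (233) lay 46 and 175 bp upstream, and par-3 had an intronic one at 255. For pkc-3, which codes for atypical protein kinase C, the replicate ranks were 1919 and 1998. For lgl-1 they were 4696 and 1162, so that only 1 replicate had it among the 2430 strongest. The same held for par-5, at 1460 and 2961, for the par-1 summit at 249 and the mbk-2 summit at 288. It also held for some summits of the lists below, such as those of gld-3 and skn-1.

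The ubiquitin ligase that destroys CCCH proteins in somatic cells had thresholded summits at 2 of 5 genes, beside 12.3% of all genes. The summits of elc-1 (368) and rbx-1 (348) lay 1701 and 1843 bp upstream. Both were nearer to another gene, Y82E9BR.3 and ztf-9, and neither was in a promoter window of elc-1 or rbx-1. Maternal RNA regulators had 3 of 10, beside the same 12.3%. The mex-3 summit, at 354, was intronic, while the spn-4 (398) and gld-3 (282) summits were 397 and 520 bp upstream and nearer to spe-39 and T07F8.4. Germ granule genes had 2 of 12 (16.7%), near the 12.3% over all genes. Their summits at cgh-1 (336) and ifet-1 (823) were both nearer to a neighbour, C07H6.9 and the ribosomal protein gene rps-1. The ifet-1 summit, with replicate ranks of 184 and 157, was the strongest in these lists.

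Targets of the CCCH proteins and the transcription machinery they hold back had 4 of 11, beside 12.3% of all genes, each with its own 5' end nearest. Of the 4, taf-4, cdk-9 and ama-1 belong to the transcription machinery and only skn-1 to the targets. CDK-9 is the kinase of P-TEFb, the elongation factor that PIE-1 is known to counter, and cdk-9 had a summit 143 bp upstream with a signal of 592 and replicate ranks of 310 and 372. The summit of taf-4, whose product the OMA proteins bind, was 288 bp upstream at 452, with ranks of 606 and 529. At ama-1, for the large subunit of RNA polymerase II, it was 370 bp upstream at 255. The one at skn-1, a maternal transcription factor gene for the fate of the EMS lineage, lay within the gene in a coding exon, 255 bp upstream of a shorter transcript, at 245. Other genes with at least 2 matches to the finger pattern had 2 of 13 (15.4%), near the 12.3% over all genes. These were ccch-1 and unk-1, with intronic summits at signals from 234 to 395.

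**Figure D4:**
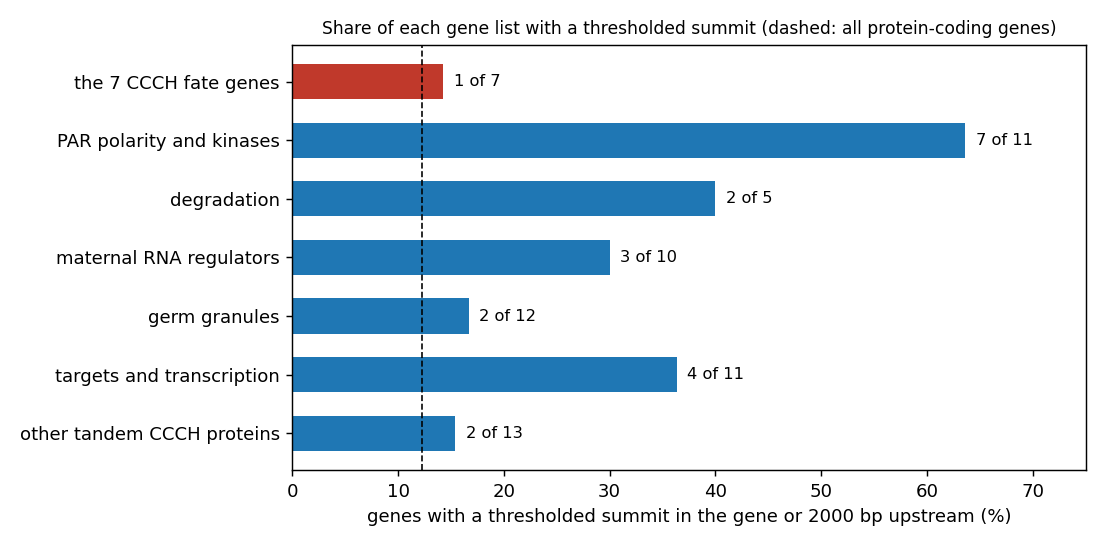
Share of each gene list with a thresholded summit in the gene window, in percent (x), with the count beside each bar, for the 7 CCCH fate genes (red) and the 6 lists of related genes (blue). The dashed line is the 12.3% of all protein-coding genes; the 7 fate genes stand at 1 of 7 and the polarity genes and kinases at 7 of 11.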

How the data were processed

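SPTF-1 ChIP-seq regions of 2 biological replicates of mixed-stage embryos were read as deposited, on ce11 only. For each region the authors deposited a signal value, a score without fixed range that ranked the regions here, and a −log10 q value. The summit is the region start plus the offset given. Per the labels, chromatin was sonicated. The aligner, peak caller, IDR cutoff and read depth are not given in the sources used here. Coordinates are 1-based. Gene models came from the Ensembl 115 annotation of WBcel235 and sequences from the RefSeq genome. The ce10 lists were not used here.

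The members, lists and motifs were chosen with earlier results of these data known. Named genes are the 7 members, the listed genes with a thresholded summit, the genes with the nearest 5' end and the 2 genes each just above and below the strongest member promoter summit by signal, each pair sharing 1 summit. Further neighbours, namely rab-7, snr-6, Y49E10.16, spr-2 and lmd-3, were named after the values were seen, when the stretches without regions, the rank bands and the 36-base words were added too. No test was run, since there is 1 group. The finger pattern was sought in coding sequences translated from the annotation. The region and motif search was tested on simulated data. Alternatives covered the upstream reach, gene assignment, overlap rule, threshold, flank and each replicate alone. Python 3.11.15, NumPy 2.4.6, SciPy 1.17.1, pandas 2.3.3 and matplotlib 3.10.9 were used.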

Additional observations from a re-analysis of the deposited data

How the results depend on the processing

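Of 50 alternatives, 45 left the value within its limits and 0 reversed. A fall from 4 to 3 members, or from 3 to 2, counted as within the limits. The call of mex-1 depended on how far upstream a summit may lie. With 500 bp upstream, the number of members with a thresholded summit in the gene window fell from 1 to 0, and so did the number with a thresholded promoter summit. Counting each summit only for the nearest 5' end gave 0 as well. With 1000 bp upstream the degradation genes fell from 2 to 0 of 5. With a summit of each replicate within 100 bp in place of 1 shared base, a setting added after the values were seen, the members' pooled regions listed in both replicates fell from 11 to 5 of 17. Without replicate 1 or without replicate 2, the thresholded counts of the 7 genes stayed at 1, and the pooled count of 4 became 3 and 4. No paired analysis was possible because there is 1 group. With 2 replicates and unknown depth, a gene without a listed region may have occupancy below what these lists show.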
